A study of Xenopus tropicalis with 12 samples.

Results

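Cytochrome P450 enzymes of families 1 to 4 were followed in the liver of Xenopus tropicalis, a frog whose tadpoles turn into froglets under thyroid hormone. Members were genes whose symbol began with cyp, a family number between 1 and 4 and a subfamily letter, and whose mean over the 12 liver libraries was at least 0.5 CPM, the count of a gene scaled to a common library depth. 34 genes met this rule, of 39 with such a symbol and 26529 genes in the count table. They comprised 3 genes of family 1, 22 of family 2, 3 of family 3 and 6 of family 4, in 17 subfamilies. The genes left out were cyp1b1, cyp2a6.4, cyp2a6.5, cyp2a6.6 and cyp2w1, of which cyp2a6.5 came closest with a mean of 0.394 CPM. The lowest members, cyp2c8.1 and cyp2a6.8, averaged 2.02 and 2.74 CPM.

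The libraries formed 4 groups of 3, all from wild-type animals. In the T3 group, stage 54 tadpoles received triiodothyronine (T3), the active form of thyroid hormone, at 10 nM over 18 h before liver was taken. The groups st54, st61 and st66 were untreated tadpoles at stage 54 (before metamorphosis), stage 61 (its climax) and stage 66 (its end). Tadpoles shared their parents, and per the labels the 3 libraries of a group came from different tadpoles. The sources used here do not give ages in days.

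P450 enzymes are haem proteins of the endoplasmic reticulum that insert an oxygen atom into their substrates, taking electrons from P450 reductase and cytochrome b5. Families 1 to 3 are best known from the liver, where they oxidise drugs, plant compounds, pollutants and steroids, while family 4 enzymes mainly hydroxylate fatty acids. Many of these genes lie in tandem arrays that duplicated separately in each vertebrate lineage. A frog symbol such as cyp2d6 therefore names the closest human enzyme. The substrates given below are those of the human enzymes unless stated otherwise, and were not measured in the frog.

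Library depth ran from 7928459 to 39536147 counts. Hepatocyte markers were abundant in every library, with a summed level of 39296 to 44644 CPM over 10 genes in T3, 56018 to 58321 CPM in st54, 69425 to 81919 CPM in st61 and 52775 to 90474 CPM in st66. Of 5 genes that answer to thyroid hormone in tadpoles, 4 (klf9, thibz, thrb and dio2) were called higher in T3 than in st54 (9.47% of all genes tested). The hormone receptor gene thrb averaged 24.3 ± 0.345 CPM in T3 and 1.02 ± 0.551 CPM in st54 (SD, n = 3 each). Of these 4 calls only that of thrb held in every alternative fit described below. The remaining gene, dio3, was not called and lay lower, with 349, 350 and 361 CPM in T3 against 917, 1002 and 463 CPM in st54. The T3 libraries lay very close together (biological coefficient of variation 2.57%, against 33.7% in st54, 23.9% in st61 and 40.1% in st66), and each pair of them differed by more than sampling noise, as separate libraries of 1 RNA sample can. They were treated as 3 samples on their labels alone, and whether they came from separate tadpoles was not tested. The third st54 library and the first st66 library stood apart from the others of their groups: ribosomal protein genes took 12.9% of counts in the third st54 library against 9.77% and 8.83% in the others, and 7.94% in the first st66 library against 16.5% and 16.8%.

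Markers of other cell types moved as well, and their part in the results was not tested. Exocrine pancreas markers (7 genes) summed to 1081 to 1133 CPM in T3, 287 to 2045 CPM in st54, 220 to 1715 CPM in st61 and 87.1 to 505 CPM in st66, with none at 0 in any group. These sums hide opposite moves. In st61 against st54 prss1 was called higher (328, 856 and 39.8 CPM against 0.0861, 0 and 3.53 CPM), amy2a, pnlip and cela2a were called lower, and cpa1, cpb1 and ctrb1 were not called. Bile duct markers (4 genes) summed to 210 to 214 CPM in T3, 167 to 354 CPM in st54, 731 to 1254 CPM in st61 and 511 to 1223 CPM in st66. Only krt19 of these 4 was called higher in st61 than in st54, and epcam had 54.2 to 75.8 CPM in st61, against 67.9 to 158 CPM in st54. Erythroid markers (6 genes) lay at 1686 to 1723 CPM in T3, 1475 to 3200 CPM in st54, 7401 to 8537 CPM in st61 and 8586 to 16587 CPM in st66. In st61 against st54 the globin genes hba1 and hbg1 rose, the globin gene hbe1 fell, the other 3 (alas2, gata1 and slc4a1) were not called, and the median log2 change of the 6 was 0.01. Macrophage markers (3 genes) lay between 261 and 527 CPM throughout. Intestinal epithelium (6 genes) never summed to more than 30.7 CPM, with at most 1 of them at 0 in a group. Kidney tubule markers (5 genes) never summed to more than 4.79 CPM, with 1 or 2 of the 5 at 0 in each group. In whole liver, fewer cells of a type and less RNA per cell cannot be told apart.

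Together the 34 members were most abundant at climax. Their summed level was 6945, 6883 and 6173 CPM in the st61 libraries, against 4244, 4765 and 2379 CPM in st54. It was 4393, 4080 and 3436 CPM in st66 and 2897, 2952 and 2969 CPM in T3. All st61 libraries lay above all others, the T3 libraries lay close to each other, and the third st54 library was the lowest of all 12. Much of the st61 sum came from cyp2a6.9 and cyp2g1p. Without this pair the other 32 members summed to 4163, 3918 and 4256 CPM in st61, within the range of 4244, 4765 and 2362 CPM in st54.

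The makeup of this pool changed with stage. Levels of different genes were compared per kilobase of exon, which divides out transcript length. In st54 the most abundant members per kilobase were cyp2c8l, cyp4b1 and cyp2b6, and in T3 they were cyp2c8.2, cyp2c8l and cyp1a1. In st61 cyp2a6.9 and cyp2g1p held the first places, and in st66 the same pair in the other order. The cyp2a genes took 9.81% of the members' per-kilobase total in T3, 27.6% in st61 and 21.4% in st66, against 10.4% in st54. The share of cyp2g1p was 2.31% in T3, 13.0% in st61 and 13.5% in st66, against 0.0768% in st54. The cyp4b genes took 9.94% in T3, 3.97% in st61 and 11% in st66, against 17.7% in st54. Their share was 24.3% in the third st54 library and 14.6% and 14.2% in the others. In st66 it was 14.5%, 10.3% and 8.19%, which overlapped with st54. A share also falls where other members rise.

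**Figure D1:**
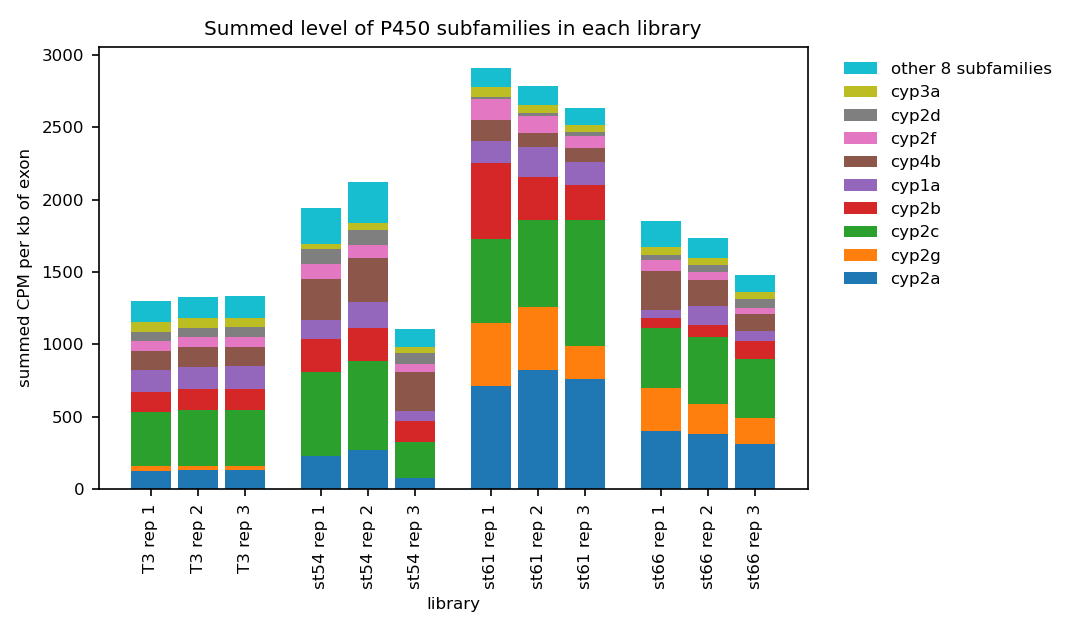
Stacked bars of summed CPM per kilobase of exon in each library, one bar per library in the order T3, st54, st61 and st66, coloured by subfamily, with the smaller subfamilies pooled. The cyp2a part averages 765 in st61 and 190 in st54, the cyp2g part (cyp2g1p) 363 in st61 and 0.872 in st54, and the bar of st54 replicate 3 is the lowest of all.

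Gene by gene, groups were compared by the quasi-likelihood test of edgeR. Its p-values were adjusted over the 15102 genes that entered (Benjamini-Hochberg), and an adjusted p under 0.05 made a call. Where a call was lost in some of the 21 alternative fits, its adjusted p is followed by the range over those fits and by the libraries whose omission ended it. All 34 members entered the test, cyp2a6.7 and cyp2a6.8 only through the groups in which they were high. In st61 against st54, 8 members rose (10.0% of all genes tested were called higher) and 8 fell (8.85% of all genes were called lower), so 23.5% of members were called in each direction. These counts include cyp2a6.8 in st61 against st54, both low copies in st66 against st54 and cyp2a6.7 in st66 against st61. Over the other 32 members, 7 rose and 8 fell in st61 against st54, with a median size of the log2 change of 1.0 beside 0.37 over all genes. In st66 against st54, 8 members rose, 6 without the low copies (8.23% of all genes), and 7 fell (5.48% of all genes). Between st66 and st61, 4 members were higher in st66, 3 without cyp2a6.7 (5.75% of all genes), and 2 lower (4.28% of all genes). The comparisons share groups, so their counts are not independent.

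T3 against st54 gave 5 members higher (9.47% of all genes) and 5 lower (7.55% of all genes). T3 against st61 gave 5 higher (16.6% of all genes) and 8 lower, 7 without cyp2a6.8 (16.6% of all genes). The share called higher, 14.7% of members, was near that of all genes and is no result about the members. Beside that, 5 of 10 hepatocyte markers and 3 of 4 bile duct markers were called lower in T3 than in st61. All comparisons share 1 estimate of the spread per gene, so p-values of the stage comparisons also draw on the T3 libraries. The counts given for T3 rest on treating the 3 closely spaced T3 libraries as separate samples. With their counts summed to 1 library, the edgeR calls in T3 against st54 were lost for the members as for most other genes called. In T3 against st61, the calls of cyp2e1 (higher) and cyp2c19 (lower) were kept, and calls of subfamily sums were lost in both comparisons. That of cyp2a6.8 was kept too, which is no sign of a stable call, because it entered the test through the groups in which it was high. Far fewer genes of any kind were called with the T3 libraries summed, so the calls lost there are no result about the members. DESeq2, with 3 T3 libraries, called 5 higher (12.5% of all genes) and 8 lower (12.9% of all genes) in T3 against st54.

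Leaving out the third st54 library and the first st66 library, an alternative chosen after the data were seen, gave 16 members lower in st66 than in st54 (17.7% of all genes in that fit) and 9 lower in st66 than in st61 (20% of all genes). It gave 9 higher (25.2% of all genes) and 13 lower (24.8% of all genes) in T3 than in st54. The third st54 library lay more than 1.5-fold below both other st54 libraries in 19 of the 34 members and above them in 4 (cyp2a6.9, cyp2g1p, cyp3a4.2 and cyp1c1). The share of all genes that did so was not counted, so these counts describe that library and are no result about the members. With all 12 libraries, 8 members were called in no comparison by edgeR: cyp1a1, cyp2a13l, cyp2a6.2, cyp2a6.10, cyp2f1, cyp3a5, cyp4f2 and cyp4f22. Of these only cyp2a13l was also called in none of the alternative fits.

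**Figure D2:**
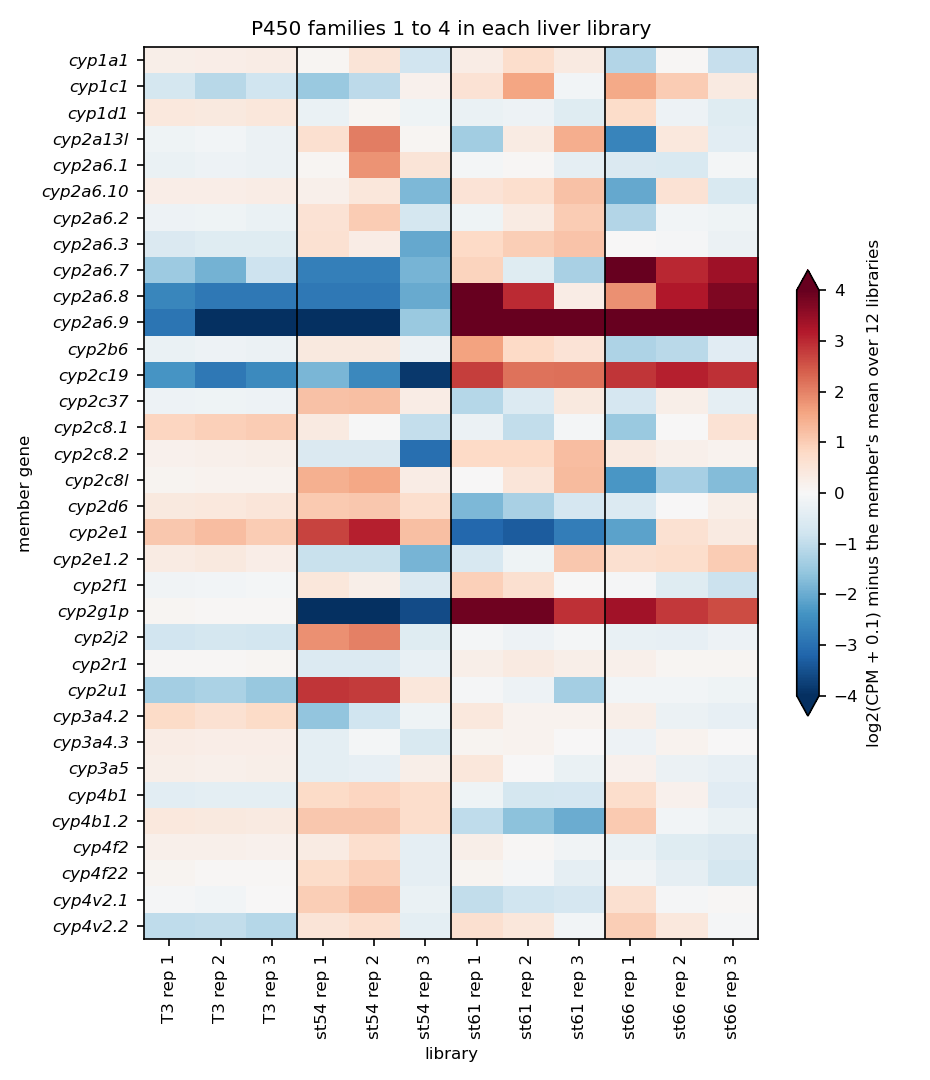
Heatmap of the 34 members (rows) in each library (columns, T3, st54, st61 and st66), coloured by log2 of CPM plus a small constant, minus the member's own mean over the 12 libraries. The strongest colours belong to cyp2a6.9, cyp2g1p, cyp2a6.7, cyp2a6.8 and cyp2c19, high in st61 or st66, and to cyp2e1, low in st61.

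The steepest increases lay in an array on chromosome 8 (78751180 to 79096281, positions as in UCB_Xtro_10.0) that holds 10 cyp2a6 copies and cyp2g1p. CYP2A6 oxidises nicotine and coumarin, and CYP2G1 is an enzyme of the nasal lining in rabbits and rodents whose human gene is a pseudogene. The frog gene carries the human suffix but is annotated as protein coding. From one end of the array to the other the genes behaved differently, although they are near-copies among which reads may have been split.

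The gene cyp2a6.9 had 1286, 1476 and 1146 CPM in st61, against 0.215, 0 and 8.61 CPM in st54. It had 698, 563 and 447 CPM in st66. No st61 or st66 library overlapped with st54, and the third st54 library was the highest of its group. The increase was 490-fold in st61 (1303 ± 165 CPM against 2.94 ± 4.91 CPM, log2 change 8.94, SE 1.70, adjusted p = 0.00372) and 214-fold in st66 (adjusted p = 0.00864, range 0.000127 to 0.0571, lost in a fit of st66 and st54 alone). The size of these folds rests on the few st54 counts, 105 of which came from the third library, with 5 and 0 in the others. Without the third st54 library the fitted log2 change was 13.63 in st61 and 12.43 in st66, and without the first or the second the folds were 322 and 309 in st61 and 141 and 135 in st66. In T3 it stayed at 3.13, 0.0259 and 1.01 CPM, and T3 was not called against st54 (log2 change -0.90, adjusted p = 0.674). It was 918-fold lower in T3 than in st61 (adjusted p = 0.00172, range 7.7e-08 to 0.0826, the highest with the T3 libraries summed), and 2560-fold lower without the first T3 library.

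At the far end of the array, cyp2g1p had 1496, 1489 and 771 CPM in st61, against 0.258, 0.312 and 8.45 CPM in st54. It had 1038, 721 and 621 CPM in st66. T3 libraries lay in between at 107, 104 and 105 CPM, above every st54 library and below every st61 and st66 library. The gene rose 457-fold in st61 (adjusted p = 0.00047), 289-fold in st66 (adjusted p = 0.00105) and 38.4-fold in T3 against st54 (105 ± 1.71 CPM against 3.00 ± 4.71 CPM, log2 change 5.26, SE 1.04, adjusted p = 0.00852). The adjusted p for T3 against st54 ranged from 9.8e-07 to 0.15, the highest with the T3 libraries summed, and was 1.48e-05 without the third st54 library. That library held 103 of the st54 counts, with 6 and 9 in the others. Without it the folds over st54 were 4270 in st61, 2720 in st66 and 361 in T3. Without the first or the second st54 library they were 302 and 301 in st61, 191 in either case in st66, and 25.4 and 25.3 in T3. T3 was 11.9-fold below st61 (adjusted p = 0.0134, range 2.51e-06 to 0.259, lost without any 1 T3 library).

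**Figure D3:**
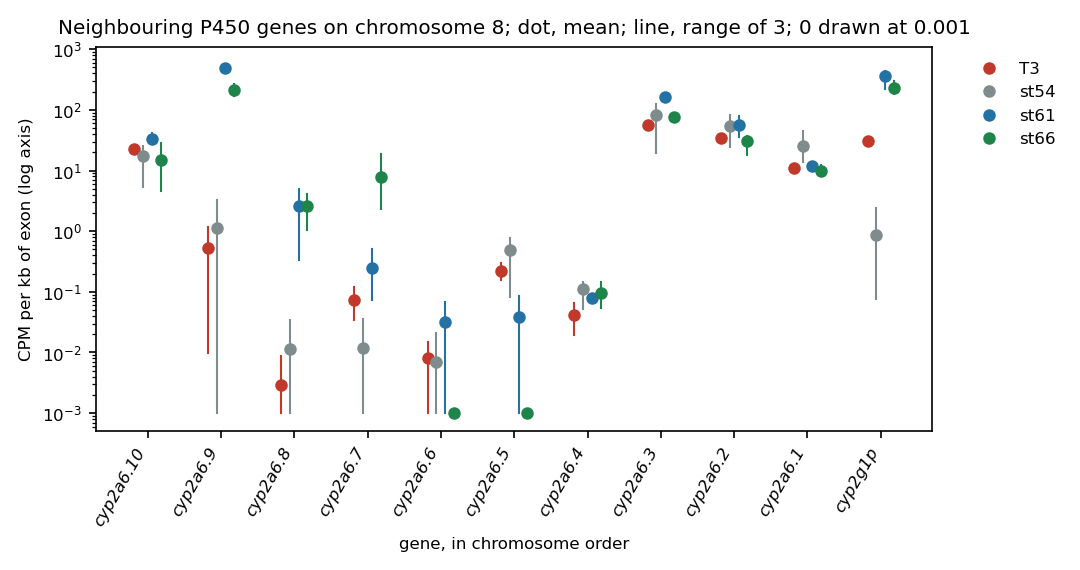
Group mean CPM per kilobase of exon on a log axis (dots, with lines for the range of 3 libraries) for the 11 genes of the chromosome 8 array in their order along the chromosome, for T3, st54, st61 and st66, with 0 drawn at the foot of the axis. The genes cyp2a6.9 and cyp2g1p reach 495 and 363 CPM per kilobase in st61, while cyp2a6.4, cyp2a6.5 and cyp2a6.6 between them stay low in every group.

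Beside cyp2a6.9, the copies cyp2a6.8 and cyp2a6.7 were almost silent in st54, with 1 count each over the 3 st54 libraries. For cyp2a6.8, 11.9, 5.74 and 0.795 CPM were seen in st61, against 0, 0 and 0.0820 CPM in st54. In st66 it had 2.49, 6.59 and 9.58 CPM. No st61 or st66 library overlapped with st54. The ratio of its summed counts, scaled for depth, was 393 in st61 to st54 (95% counting interval 70.0 to 15550) and 291 in st66 to st54 (51.5 to 11574). Both ratios rest on 1 st54 count and leave out the spread between libraries, so their intervals cannot show a difference. No p is given for cyp2a6.8 or cyp2a6.7, and their lack of overlap is not taken as support. Both entered the test through the groups in which they were high. In T3 it was seen in the first library only, at 0.0203 CPM, so that T3 and st54 were both at or below the floor of 3 counts.

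The copy cyp2a6.7 was highest in st66. It had 42.1, 5.23 and 6.89 CPM in st66, against 1.14, 0.379 and 0.170 CPM in st61. Its first st66 library was by far the highest of all, and no st66 library overlapped with st61. The fitted ratio of st66 to st61 was 32.9, and it was 10.8 without the first st66 library and 64.8 without the first st61 library. The ratio of summed counts in st66 to st54 was 1876 (95% counting interval 336 to 74151), and 393 without the first st66 library (68.5 to 15724). In T3 it had 7, 3 and 9 counts (0.142, 0.0778 and 0.274 CPM), near the floor of 3 counts, and T3 was not called against st54. The ratio of summed counts in T3 to st54 was 10.1 (1.61 to 421). All these ratios of summed counts to st54 rest on 1 st54 count and leave out the spread between libraries, so none can show a difference.

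The other copies with appreciable levels were expressed before metamorphosis and gave few calls. The most abundant of them, cyp2a6.3, had 127, 135 and 134 CPM in T3, 326, 376 and 419 CPM in st61 and 191, 184 and 161 CPM in st66, against 289, 230 and 45.1 CPM in st54. With all libraries it was called only in T3 against st61, 2.83-fold lower (adjusted p = 0.0306, range 1.02e-05 to 0.315, lost without any 1 T3 or st61 library). The third st54 library was far below the rest, and without it T3 against st54 and st66 against st61 were called as well (adjusted p = 0.00338 and 0.00236). At the edge by cyp2g1p, cyp2a6.1 had 54.4, 57.1 and 55.7 CPM in T3, 62.8, 67.8 and 51.4 CPM in st61 and 44.5, 43.2 and 62.0 CPM in st66, against 69.1, 228 and 94.7 CPM in st54. It fell 2.35-fold in T3 against st54 (adjusted p = 0.0389, range 0.00639 to 0.476, lost without any 1 T3 or st61 library or the second st54 library) and 2.62-fold in st66 against st54 (adjusted p = 0.0261, range 0.00197 to 0.155, lost without the second library of st54 or of st66). The second st54 library was the highest of all, and without it the differences from st54 were 1.47-fold in T3 and 1.64-fold in st66. Neither cyp2a6.2 nor cyp2a6.10 was called with all 12 libraries, with levels of 33.1 to 150 CPM and 10.3 to 96.2 CPM over the 12 libraries.

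The 8 cyp2a members, which include cyp2a13l on chromosome 5 and leave out cyp2g1p, were also summed. A sum is indifferent to how reads were split between the summed copies, but not to reads that were lost. It came to 1936 ± 145 CPM in st61, against 485 ± 248 CPM in st54. Of these sums, cyp2a6.9 alone made up 1303 CPM in st61 and 2.94 CPM in st54. The sum rose 3.99-fold (log2 change 2.0, SE 0.35, adjusted p = 0.00215), and it was 6.17-fold lower in T3 than in st61 (314 ± 5.44 CPM in T3, adjusted p = 0.000363, range 8.95e-14 to 0.0533, the highest with the T3 libraries summed). The st66 sum of 920 ± 120 CPM was not called against st54 (log2 change 0.92, adjusted p = 0.0949, and 0.0398 by DESeq2). Of the 7 subfamilies with at least 2 members, 1 rose and 2 fell in st61 against st54 (10.0% and 8.85% of all genes). In T3 against st54, 1 of the 7 rose and 1 fell (9.47% and 7.55% of all genes). None was called in st66 against st54 or st61 by edgeR (1 higher and 1 lower, and 1 higher and 2 lower, at an unadjusted p under 0.05), while DESeq2 called 1 higher and 1 lower in each. Of all 14988 genes, DESeq2 called 1584 higher and 1251 lower in st66 against st54. Against st61 it called 1344 higher and 1196 lower.

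A second array, on chromosome 5 (148481181 to 148772810), holds cyp2f1, cyp2a13l, cyp2e1, cyp2c19, cyp2e1.2 and cyp2b6. Its members went in opposite directions. The clearest was cyp2c19, whose human namesake oxidises proton pump inhibitors and other drugs.

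The level of cyp2c19 was 265, 178 and 179 CPM in st61, against 10.9, 6.51 and 2.62 CPM in st54. It was 284, 336 and 296 CPM in st66 and 7.47, 5.34 and 6.68 CPM in T3. Every st61 and st66 library lay at least an order of magnitude above every st54 and T3 library. The increase was 30.6-fold in st61 (207 ± 50.2 CPM against 6.67 ± 4.14 CPM, log2 change 4.94, SE 0.43, adjusted p = 2.78e-05) and 45.1-fold in st66 (305 ± 27.5 CPM, adjusted p = 2.2e-05), and both calls held in all alternatives tried. T3 was not called against st54 (log2 change -0.06, adjusted p = 0.933) and was 31.9-fold below st61 (adjusted p = 2.84e-05).

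Next to it, cyp2e1, named for the human enzyme that oxidises ethanol and acetone, went the other way. It had 0.286, 0.237 and 0.398 CPM in st61, against 22.0, 28.7 and 7.71 CPM in st54, a 63.3-fold fall (log2 change -5.98, SE 0.75, adjusted p = 0.000272). The st61 values of cyp2e1 were 5, 5 and 7 counts, near the floor of 3 counts, so the size of its folds against st61 is uncertain. In st66 it had 0.666, 5.07 and 4.19 CPM, 6.55-fold below st54 (adjusted p = 0.0142, range 1.97e-05 to 0.109, lost without the second st54 library) and 9.67-fold above st61 (adjusted p = 0.0243, range 1.61e-05 to 0.105, lost without any 1 st61 library or the second or the third st66 library). All st61 libraries lay below all others, and the first st66 library lay nearest to them. Without that library st66 was 4.26-fold below st54 and 14.9-fold above st61. T3 had 7.06, 7.85 and 6.77 CPM, 23.4-fold above st61 (adjusted p = 0.00102).

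Its tandem partner cyp2e1.2 rose instead. It had 18.7, 19.4 and 17.9 CPM in T3, 9.42, 13.3 and 31.8 CPM in st61 and 23.1, 24.5 and 30.2 CPM in st66, against 8.05, 7.93 and 4.02 CPM in st54. No st54 library reached the lowest of the others. The increase over st54 was 2.77-fold in T3 (adjusted p = 0.0284, range 0.00381 to 0.351, lost without any 1 T3 library or the first or the second st54 library). It was 2.69-fold in st61 (adjusted p = 0.0263, range 0.00375 to 0.101, lost without the third library of st61, where it was 1.69-fold, or the second or the third of st54) and 3.84-fold in st66 (adjusted p = 0.00826). The sum of the pair was not called in st61 against st54 (log2 change -0.51, adjusted p = 0.484). The gene spans of cyp2c19 and cyp2e1.2 overlap head to head on opposite strands, with no exon base shared.

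At the array's end, cyp2b6, named for an enzyme that oxidises bupropion and whose gene answers to the receptor CAR, had 951, 541 and 450 CPM in st61 and 133, 146 and 227 CPM in st66, against 407, 411 and 263 CPM in st54. T3 had 256, 268 and 265 CPM. All st61 libraries were above, and all st66 libraries below, those of st54. The fall in st66 was 3.85-fold against st61 (168 ± 51.0 CPM against 647 ± 267 CPM, adjusted p = 0.00387) and 2.14-fold against st54 (adjusted p = 0.0372, range 0.0048 to 0.124, lost without any 1 T3 library, or the first or the second library of st54 or of st66). The st61 increase over st54 was not called (log2 change 0.85, adjusted p = 0.08, and 0.0368 by DESeq2), while T3 was 2.46-fold below st61 (adjusted p = 0.00883, range 0.000246 to 0.207, the highest with the T3 libraries summed). Not called with all 12 libraries were cyp2f1, with 88.3 to 311 CPM over the 12 libraries, and cyp2a13l, with 1.47 to 40.1 CPM.

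The 4 cyp2c genes outside this array, relatives of the human drug and arachidonic acid oxidases, did not all have their lowest mean in the same group. On chromosome 6, cyp2c8l (153036438 to 153052300) had 66.9, 133 and 99.4 CPM in st66, against 888, 975 and 407 CPM in st54. It had 340, 466 and 803 CPM in st61 and 356, 368 and 364 CPM in T3. Only the st66 libraries lay below all others. The gene fell 7.59-fold in st66 against st54 (99.9 ± 33.3 CPM against 757 ± 306 CPM, log2 change -2.92, SE 0.41, adjusted p = 0.00094) and 5.38-fold against st61 (adjusted p = 0.00416), in every alternative tried.

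On chromosome 8, cyp2c8.2 (118549808 to 118567377) had 516, 515 and 696 CPM in st61, against 200, 198 and 36.7 CPM in st54. It had 333, 343 and 348 CPM in T3 and 383, 345 and 330 CPM in st66. Every library of the other groups lay above every st54 library, of which the third was lowest. The gene rose 3.97-fold in st61 against st54 (adjusted p = 0.0124, range 3.4e-05 to 0.0612, lost in a fit of those groups alone). T3 against st54 was not called (log2 change 1.24, adjusted p = 0.0847), and was at an adjusted p of 0.0131 without the third st54 library.

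The remaining cyp2c genes gave less stable results. For cyp2c37 the levels were 36.5, 54.6 and 105 CPM in st61, against 181, 184 and 98.0 CPM in st54, so that the groups overlapped. It had 69.4, 70.8 and 70.1 CPM in T3 and 50.5, 93.4 and 62.7 CPM in st66. Its 2.36-fold fall in st61 (adjusted p = 0.0386, range 0.00702 to 0.144) was lost without any 1 T3 library or the first or the second library of st54 or of st61. The low cyp2c8.1 was 2.62-fold higher in T3 than in st61 (3.33 ± 0.155 CPM against 1.27 ± 0.414 CPM, adjusted p = 0.0448, range 0.00105 to 0.298), a call lost without any 1 T3 or st61 library or the second library of st54 or of st66. The cyp2c sum, 1386 ± 346 CPM in st61 and 1064 ± 451 CPM in st54, was not called with all 12 libraries (adjusted p = 0.458 in st61 against st54 and 0.0631 in T3 against st61, where DESeq2 gave 0.0208).

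Elsewhere in family 2, cyp2d6 (chromosome 4, 120213226 to 120224215), named for the oxidase of many antidepressants and of codeine, was lowest at climax. It had 28.6, 40.0 and 61.5 CPM in st61, against 203, 211 and 158 CPM in st54. In st66 it had 67.4, 99.1 and 116 CPM, and in T3 131, 133 and 138 CPM. The groups were ordered st61, st66, T3 and st54 with no overlap between any of them. The gene fell 4.40-fold in st61 against st54 (43.4 ± 16.7 CPM against 191 ± 28.4 CPM, log2 change -2.14, SE 0.28, adjusted p = 0.000401). It was 2.17-fold higher in st66 than in st61 (adjusted p = 0.028, range 0.00237 to 0.135, lost without the first or the second st61 library or the second or the third st66 library). It was 2.03-fold lower in st66 than in st54 (adjusted p = 0.0306, range 0.00394 to 0.104, lost without any 1 T3 library, the first or the second st54 library or the second st66 library). T3 was 3.09-fold above st61 (adjusted p = 0.00148, range 6.81e-07 to 0.0565, the highest with the T3 libraries summed).

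The vitamin D 25-hydroxylase cyp2r1 (chromosome 4, 3308205 to 3321737) varied little within groups. It had 13.3, 13.1 and 13.5 CPM in T3, 15.0, 16.4 and 15.1 CPM in st61 and 14.7, 13.3 and 13.3 CPM in st66, against 8.61, 8.65 and 10.3 CPM in st54. All st54 libraries lay below all others. It rose 1.69-fold in st61 against st54 (15.5 ± 0.795 CPM against 9.20 ± 0.982 CPM, adjusted p = 0.0028). In T3 it rose 1.45-fold (adjusted p = 0.0233, range 0.000673 to 0.399) and in st66 1.5-fold (adjusted p = 0.0161, range 0.00102 to 0.266), calls lost without the first or the second st54 library and, for T3, without any 1 T3 library.

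In contrast, cyp2u1, whose human enzyme hydroxylates long-chain fatty acids, and cyp2j2, whose human enzyme epoxidises arachidonic acid, had their highest levels in st54. For cyp2u1 (chromosome 1, 66904635 to 66921280) the levels were 7.55, 7.96 and 6.77 CPM in T3, 19.0, 16.8 and 7.50 CPM in st61 and 18.1, 18.1 and 17.2 CPM in st66, against 143, 137 and 26.6 CPM in st54. The third st54 library was lowest of its group but still above the other groups. The fall was 13.8-fold in T3 (adjusted p = 0.00204, range 7.04e-12 to 0.177, the highest with the T3 libraries summed), 7.10-fold in st61 (adjusted p = 0.00324) and 5.76-fold in st66 (adjusted p = 0.00826, range 1.13e-05 to 0.0551, lost in a fit of those groups alone).

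For cyp2j2 (chromosome 4, 47683315 to 47803660) the levels were 9.34, 9.72 and 9.51 CPM in T3, 15.0, 13.8 and 14.9 CPM in st61 and 12.9, 12.7 and 13.6 CPM in st66, against 56.1, 64.2 and 11.2 CPM in st54. The third st54 library lay inside the range of the other groups. The fall was 4.62-fold in T3 (adjusted p = 0.00979, range 2.43e-07 to 0.333, the highest with the T3 libraries summed). It was 3.02-fold in st61 (adjusted p = 0.0272, range 3.09e-07 to 0.113) and 3.37-fold in st66 (adjusted p = 0.0255, range 1.36e-06 to 0.151). Both stage calls were lost without the first or the second st54 library, the st61 call without any 1 st61 library and the st66 call without the second or the third st66 library.

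**Figure D4:**
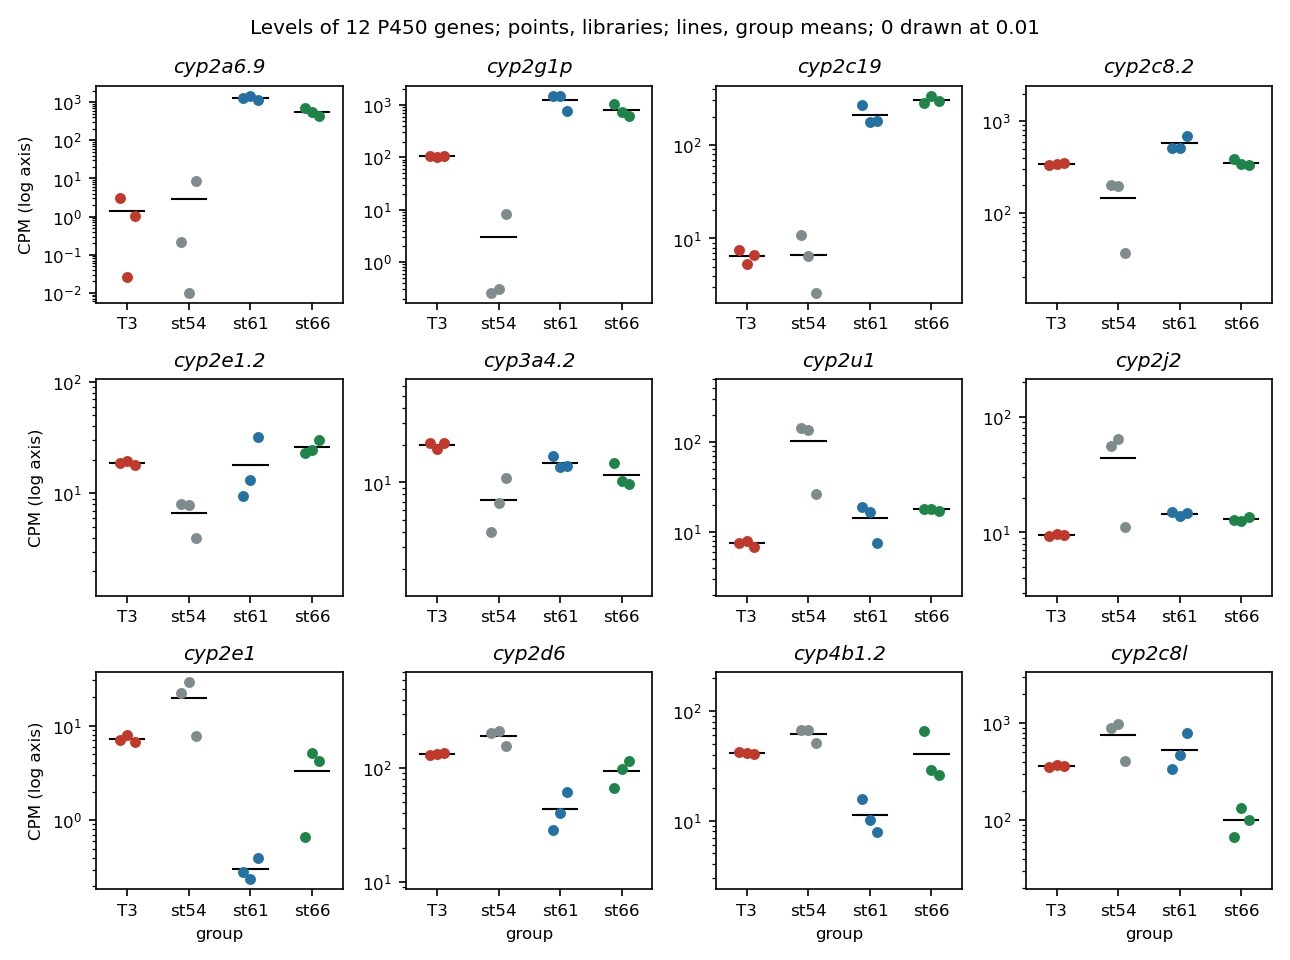
CPM on log axes for 12 members, 1 panel each, with a point per library for T3, st54, st61 and st66 from left to right, a line at each group mean and 0 drawn at the foot of the axis. For cyp2u1 and cyp2j2 the third st54 library, at 26.6 and 11.2 CPM, lies well below the other st54 libraries, which have 143 and 137 CPM of cyp2u1 and 56.1 and 64.2 CPM of cyp2j2.

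Family 1 oxidises aromatic pollutants and is induced through the aryl hydrocarbon receptor. Its main liver gene, cyp1a1 (chromosome 3, 94140137 to 94177848), was among the most abundant members and was not called with all 12 libraries. It had 485, 497 and 508 CPM in T3, 436, 591 and 243 CPM in st54, 508, 672 and 521 CPM in st61 and 182, 419 and 218 CPM in st66. All st66 libraries lay below all st61 libraries, but the 2.08-fold difference between them missed the threshold (log2 change -1.06, adjusted p = 0.0799). It passed in 5 of the 21 alternatives, among them DESeq2 (adjusted p = 0.0224), the replicate block (0.0484) and the fit without the third st54 library (0.038). The genes cyp1c1 and cyp1d1, of subfamilies with no working human gene, gave weak calls. The low cyp1c1 averaged 5.82 ± 2.27 CPM in st66 and 1.82 ± 1.21 CPM in st54 (3.4-fold, adjusted p = 0.0462, range 0.0109 to 0.158), a call lost without any 1 T3 library, the first st61 library or the first or the second library of st54 or of st66, and 5.22-fold without the third st54 library. It was 3.44-fold lower in T3 than in st61 (adjusted p = 0.0193, range 0.00224 to 0.26, lost without any 1 T3 library or the second st61 library, where it was 2.28-fold). With 99.6, 97.4 and 102 CPM in T3, cyp1d1 lay above the 61.8, 64.2 and 53.0 CPM of st61, with 62.7, 79.2 and 67.0 CPM in st54 and 125, 65.3 and 53.6 CPM in st66. This was a 1.67-fold difference (adjusted p = 0.049, range 0.000494 to 0.314) lost without any 1 T3 or st61 library, the first or the second st54 library or the second st66 library.

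Family 3, which in humans contains the main drug-metabolising enzyme CYP3A4, had 3 members, of which both tandem copies on chromosome 5 (87954931 to 88012185) were higher in T3 than in st54. The more abundant copy, cyp3a4.3, had 65.9, 64.4 and 63.5 CPM in T3, against 40.4, 49.9 and 35.0 CPM in st54, a 1.55-fold increase (adjusted p = 0.0234, range 0.00192 to 0.368, lost without any 1 T3 library or the first st54 library). Its neighbour cyp3a4.2 had 20.9, 18.6 and 20.8 CPM in T3, against 3.96, 6.89 and 10.8 CPM in st54, a 2.81-fold increase (adjusted p = 0.00869, range 5.93e-05 to 0.22, the highest with the T3 libraries summed). No T3 library overlapped with st54 in either gene. The level of cyp3a4.3 was 57.8, 58.8 and 53.3 CPM in st61 and 46.4, 59.1 and 53.8 CPM in st66. In st61 cyp3a4.2 had 16.3, 13.4 and 13.5 CPM, 2.02-fold above st54 (adjusted p = 0.0339, range 0.000495 to 0.105, lost without any 1 T3 or st61 library or the first or the second st54 library), and in st66 14.4, 10.3 and 9.73 CPM. The third gene, cyp3a5 on chromosome 6, was not called with all 12 libraries, with 29.0 to 52.3 CPM over all libraries. The cyp3a sum was 129 ± 2.53 CPM in T3 and 83.5 ± 8.98 CPM in st54, an increase of 1.54-fold (adjusted p = 0.0189, range 9.31e-05 to 0.356, lost without any 1 T3 library or the first or the second st54 library).

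The fatty acid hydroxylases of family 4 were lower at climax in part: 3 of 6 fell in st61 against st54 (8.85% of all genes tested were called lower). The tandem pair on chromosome 4 (93780134 to 93811048) fell together. The first, cyp4b1, a lung enzyme in mammals, had 230, 160 and 163 CPM in st61, against 438, 469 and 424 CPM in st54. In T3 it had 192, 196 and 196 CPM and in st66 417, 288 and 190 CPM. All T3, st61 and st66 libraries lay below every st54 library, with those of st66 spread from near the st54 level down to the st61 level. The difference of st66 from st54 was not called (log2 change -0.57, adjusted p = 0.175). The fall was 2.28-fold in T3 (adjusted p = 0.0133, range 5.73e-05 to 0.371, lost without any 1 T3 library) and 2.41-fold in st61 (184 ± 39.5 CPM against 444 ± 22.8 CPM, adjusted p = 0.0061).

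The second, cyp4b1.2, had 15.8, 10.1 and 7.90 CPM in st61, against 67.1, 67.7 and 51.4 CPM in st54. It had 42.6, 41.6 and 40.6 CPM in T3 and 65.6, 29.2 and 26.4 CPM in st66. All st61 libraries were below all others. The gene fell 5.53-fold in st61 against st54 (log2 change -2.47, SE 0.35, adjusted p = 0.000628) and was higher than st61 by 3.63-fold in st66 (adjusted p = 0.00743, range 9.8e-06 to 0.0695, lost without the second st61 library) and by 3.70-fold in T3 (adjusted p = 0.00209, range 1.36e-06 to 0.0607, the highest with the T3 libraries summed). The cyp4b sum fell 2.59-fold in st61 against st54 (195 ± 43.4 CPM against 506 ± 30.3 CPM, adjusted p = 0.00454) and 2.14-fold in T3 against st54 (236 ± 1.81 CPM, adjusted p = 0.0203, range 0.000332 to 0.42, lost without any 1 T3 library or the first or the second st54 library).

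Copies of cyp4v2, whose human gene is mutated in a crystalline retinal dystrophy, lie side by side on chromosome 1 (44062556 to 44109022) and differed in pattern. Levels of cyp4v2.1 were 28.6, 32.3 and 35.6 CPM in st61, against 112, 134 and 46.8 CPM in st54, a 3.04-fold fall (adjusted p = 0.00544). In T3 it had 54.5, 52.5 and 56.9 CPM, and in st66 87.6, 54.5 and 57.8 CPM. The st61 libraries were the lowest, and no other group was called against st54.

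For cyp4v2.2 it was T3 that stood low, with 12.8, 13.0 and 11.7 CPM in T3, against 37.3, 41.7 and 19.7 CPM in st54. It had 40.3, 35.3 and 24.3 CPM in st61 and 51.1, 35.1 and 25.2 CPM in st66. T3 was 2.64-fold below st54 (adjusted p = 0.014, range 0.000101 to 0.362, lost without any 1 T3 library or the first or the second st54 library) and 2.66-fold below st61 (adjusted p = 0.00592, range 8.6e-05 to 0.169, the highest with the T3 libraries summed). The sum of the pair fell 2.0-fold in st61 against st54 (65.4 ± 4.89 CPM against 130 ± 57.0 CPM, adjusted p = 0.043, range 1.27e-05 to 0.173), a call lost without any 1 T3 or st61 library, the first or the second st54 library or the second st66 library. The cyp4f pair on chromosome 2, cyp4f2 (leukotriene and vitamin K hydroxylase) and cyp4f22 (a skin lipid enzyme), was not called with all 12 libraries, with 35.2 to 84.7 CPM and 25 to 79.9 CPM over the libraries. The levels of cyp4f2 were 60.8, 61.6 and 59.5 CPM in T3, 62.7, 54.9 and 47.8 CPM in st61 and 44.3, 37.8 and 35.2 CPM in st66, against 66.8, 84.7 and 41.2 CPM in st54. Without the third st54 library both were called lower in st66 than in st54 (adjusted p = 0.00364 for cyp4f2 and 0.00196 for cyp4f22).

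Genes that serve P450 enzymes were examined as lists. Of all genes tested, 10.0% were called higher and 8.85% lower in st61 against st54, and 8.23% and 5.48% in st66 against st54. These shares were 5.75% and 4.28% in st66 against st61, 9.47% and 7.55% in T3 against st54 and 16.6% each way in T3 against st61. Whether a list differed from all genes was not tested. Of 8 electron partners tested, 3 fell in st61 against st54 by edgeR, in every alternative tried. The cytochrome b5 reductase gene cyb5r2 fell 3.96-fold (adjusted p = 0.000823), pgrmc1, which encodes a haem-binding partner of P450 enzymes, 2.81-fold (adjusted p = 0.00203) and the cytochrome b5 gene cyb5b 1.84-fold (adjusted p = 0.00402). The gene por, for P450 reductase, was not called by edgeR in st61 against st54. It had 796, 763 and 936 CPM in st61, above the 473, 553 and 353 CPM of st54. DESeq2 called 1 partner higher and 3 lower in that comparison. In st66 against st54, 1 rose and 1 fell. The P450 reductase gene por was 2.45-fold higher (1128 ± 443 CPM in st66 and 460 ± 101 CPM in st54, adjusted p = 0.0136, range 6.43e-05 to 0.161, lost without the second st66 library), and cyb5r2 was 2.31-fold lower (adjusted p = 0.0172, range 0.0004 to 0.0648, lost without the second st54 or the third st66 library). In T3 against st54, 2 fell, cyb5r2 by 2.21-fold (adjusted p = 0.0226, range 0.00092 to 0.423, lost without any 1 T3 library or the second st54 library) and cyb5r3 by 1.66-fold (adjusted p = 0.00755, range 1.81e-12 to 0.358, the highest with the T3 libraries summed). T3 against st61 gave 4 higher and 2 lower, of which only the 2.34-fold increase of cyb5b held in every alternative (adjusted p = 0.00042). In st66 against st61 only cyb5b was called, 1.63-fold higher (adjusted p = 0.0241, range 0.00174 to 0.139, lost without the second or the third library of st61 or of st66).

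Of 22 receptors and regulators tested, 1 rose and 2 fell in st61 against st54 (10.0% and 8.85% of all genes). In st66 against st54, 1 rose and 4 fell (8.23% and 5.48% of all genes). The vitamin D receptor gene vdr was 5.23-fold lower in st61 (4.96 ± 0.798 CPM against 25.9 ± 7.19 CPM in st54, adjusted p = 3.76e-05) and 6.53-fold lower in st66 (adjusted p = 3.01e-05), in every alternative tried. The xenobiotic receptor gene nr1i2 (PXR) was 2.08-fold higher in st66 than in st54 (18.1 ± 5.97 CPM against 8.56 ± 2.20 CPM, adjusted p = 0.0189, range 0.000812 to 0.168, lost without the first st54 library or the second or the third st66 library). In T3 against st54, 3 rose and 2 fell. The retinoid X receptor gene rxrg fell 2.94-fold (adjusted p = 0.00156, range 8.84e-10 to 0.16, the highest with the T3 libraries summed) and vdr 1.94-fold (adjusted p = 0.0123, range 8.57e-05 to 0.368, lost without any 1 T3 library or the first or the second st54 library). T3 against st61 gave 5 higher and 4 lower (16.6% of all genes in each direction). Among them was nr1i3 (CAR), with 22.5 ± 0.401 CPM in T3 and 60.7 ± 23.8 CPM in st61 (adjusted p = 0.018, range 0.00117 to 0.252, lost without any 1 T3 library or the third st61 library). Between st66 and st61 only ppara was called, lower in st66 (adjusted p = 0.0424, range 0.00522 to 0.162, lost without any 1 T3 or st61 library, the first or the second st54 library or the second st66 library).

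Among 12 genes of epoxide hydrolases and haem supply, ephx1 rose and ephx2 fell in st61 against st54 (10.0% and 8.85% of all genes). The soluble epoxide hydrolase ephx2, which opens the fatty acid epoxides that P450 enzymes make, averaged 87.0 ± 35.8 CPM in st61 and 1020 ± 218 CPM in st54, an 11.7-fold fall (adjusted p = 0.00011). It was 6.89-fold higher in st66 than in st61 (adjusted p = 0.00141), where no other gene of the list was called, and 5.74-fold higher in T3 than in st61 (adjusted p = 0.000562). These calls of ephx2 held in every alternative tried. The microsomal enzyme ephx1 was 1.94-fold higher in st61 than in st54 (adjusted p = 0.0144, range 0.000294 to 0.0603, lost without the first st61 library). In st66 against st54 edgeR called 0 of the 12, with 2 higher and 1 lower at an unadjusted p under 0.05, and DESeq2 called 1 higher. In T3 against st54, fech fell 1.53-fold (adjusted p = 0.0288, range 0.000651 to 0.484, lost without any 1 T3 library or the first or the second st54 library). The gene alas1, which starts haem synthesis, had 90.3, 90.3 and 93.3 CPM in T3, against 440, 461 and 75.0 CPM in st54, so that the third st54 library lay below every T3 library. Its 3.56-fold fall (adjusted p = 0.0338, range 5.48e-06 to 0.465) was lost without any 1 T3 library, the first or the second st54 library or the second st61 library. T3 against st61 gave 1 higher and 2 lower.

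P450 genes of other families, which mostly make or break down sterols, bile acids and vitamins, numbered 20 in the table, of which 14 were tested. Of these, 2 rose and 3 fell in st61 against st54 (10.0% and 8.85% of all genes). The falls, which held in every alternative that gave a value, were 2422-fold for cyp7a1, whose enzyme opens the main path of bile acid synthesis (adjusted p = 0.000183), 19.4-fold for the sterol demethylase gene cyp51a1 (adjusted p = 0.00653) and 10.7-fold for the sterol hydroxylase gene cyp8b1.1 (adjusted p = 0.00137). The size of the cyp7a1 folds is uncertain. It had 0.742, 0.237 and 0.398 CPM in st61, near the floor of 3 counts, and 1424, 1771 and 118 CPM in st54. T3 had 67.5, 67.3 and 67.6 CPM. In st66 against st54, 1 rose and 3 fell, with cyp7a1 11-fold lower (adjusted p = 0.0275, range 8.13e-07 to 0.15, lost without the first or the second st54 library or the second or the third st66 library). Without the first st66 library cyp7a1 was 29.7-fold lower. T3 against st54 gave 1 higher and 3 lower, with cyp7a1 16.4-fold lower (adjusted p = 0.0168, range 7.01e-07 to 0.401, lost without any 1 T3 library or the first or the second st54 library). T3 against st61 gave 2 higher and 2 lower, and st66 against st61 gave 1 higher and 1 lower. The median log2 change in st61 against st54 was -0.16 over the electron partners, 0.08 over the receptors and regulators, -0.31 over the epoxide hydrolases and haem supply and -0.17 over the other P450 genes, beside -0.03 over all genes tested.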

How the data were processed

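Liver RNA was sequenced from 12 libraries in 4 groups of 3. The authors deposited a table of raw counts by gene and library, which was used unchanged. The submitters' processing notes name cutadapt 3.4 and STAR 2.7.8a. Per the file headers, the columns come from alignments with marked duplicates. The build, annotation, strand setting and treatment of multi-mapped and duplicate reads were not given in the sources used here, so reads of near-identical copies may have been split or lost. The positions of all 39 matching genes equal those in UCB_Xtro_10.0. Lines of 2 genes broken over 6 lines were left out.

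Counts were scaled by TMM and filtered with filterByExpr by group, which left 15102 genes, and 1 quasi-likelihood model with robust settings (edgeR 4.0.16, limma 3.58.1, R 4.3.3) took in the 12 libraries (4 groups, 8 residual degrees of freedom). Calls needed an adjusted p (Benjamini-Hochberg, all genes) under 0.05. For subfamily sums, members were replaced by their sum and the whole table was refitted. Where T3 libraries were summed to 1, that library was assumed to vary like those of the other groups. Standard errors of log2 changes were derived from the fitted F statistic. Levels are CPM after TMM scaling, with SD over 3 libraries. A count of 3 was worth 0.0759 to 0.378 CPM. Counting intervals and floors leave out all other error, because reads that carry no molecular identifier do not count molecules. p-values measure the spread between these libraries, with 1 estimate per gene shared by the 4 groups, so T3 libraries also entered the stage comparisons. In fits of the compared groups alone, st66 against st54 gave 296 genes higher and 271 lower, beside 1243 and 827. T3 against st54 moved the other way, with 2412 and 2339 beside 1430 and 1140. The part of the T3 libraries in this was not tested. The fit was also run on simulated counts, for st61 against st54 only, in which all groups had the same spread. That run could not test how 1 shared estimate serves groups of unlike spread. Alternatives were DESeq2 1.42.0, RLE and upper-quartile factors, scaling without the 20 most abundant genes, no filter, fits of the compared groups alone, a replicate block, summed T3 libraries, sums over all matching genes, and leaving out each library.

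The members, gene lists and tests were chosen with earlier results of these data known. Values per library are given for members called at least once with a group mean of at least 10 CPM, for the most abundant member of each subfamily of 2 or more, and for a few others named after their values were seen. Of the gene lists, called genes are named from the 3 with the largest folds in a comparison, not in each comparison.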

Additional observations from a re-analysis of the deposited data

How the results depend on the processing

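No called member or subfamily sum changed direction under any alternative. Calls of 11 of 16 members held in every alternative in st61 against st54 (cyp2g1p had no adjusted p from DESeq2), 6 of 15 in st66 against st54, 2 of 6 in st66 against st61, 0 of 10 in T3 against st54 and 3 of 13 in T3 against st61. Those that held include cyp2a6.8 in st61 against st54 and in T3 against st61, and cyp2a6.7 and cyp2a6.8 in st66 against st54. For these low copies, which entered the test through the groups in which they were high, holding is no sign of a stable call. Of 430 alternative counts of members and subfamily sums, 319 lay within 1.5 times the reported count and 111 did not; the cause was not tested. In fits of the compared groups alone, members called higher numbered 5 in st61 against st54, 5 in st66 against st54 (1 lower) and 0 in st66 against st61 (5 at an unadjusted p under 0.05), and members called lower 8 in T3 against st54 and 14 in T3 against st61. Over all genes those fits called 1208 of 14483 higher in st61 against st54. In st66 they called 296 of 14187 higher and 271 lower against st54, and 181 of 14345 higher against st61. In T3 they called 2339 of 14985 lower against st54 and 4451 of 14922 lower against st61. With T3 libraries summed, fewer members were called lower in st66 against st54 and higher in st66 against st61. Fewer were also called in either direction in T3 against st54 and against st61. Calls over all genes were also fewer with the T3 libraries summed. DESeq2 called 4 members lower in st66 against st61 and 8 in T3 against st54 (1196 and 1935 of 14988 genes). Upper-quartile factors gave 3 members higher in T3 against st61 (2233 of 15102 genes).

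The replicate numbers did not pair the libraries: deviations of same-numbered libraries correlated at -0.11 to 0.158, and in 10 of 36 pairings of a library with another group its own number correlated best. With the replicate block, 4 members were lower in st66 against st61, 3 higher in T3 against st61, and 1 subfamily sum lower in st61 against st54. Of all 15102 genes, the replicate block gave 470 lower, 2319 higher and 1140 lower in the same comparisons. Leaving out the third st54 and first st66 libraries together (chosen after the data were seen) gave 16 members lower in st66 against st54, 9 lower in st66 against st61, 9 higher and 13 lower in T3 against st54, and 13 lower in T3 against st61.

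Subfamily sums called higher in st61 against st54 numbered 2 with DESeq2 and with both libraries left out, and those called lower 1 in fits of 2 groups and with T3 summed. In st66 against st54, DESeq2 gave 1 higher and 1 lower, both scaling alternatives (RLE and upper-quartile) 1 lower, and leaving out both libraries 1 higher and 4 lower. Over all genes, leaving out both libraries gave 3236 higher and 2730 lower there, beside 1243 and 827 with all 12 libraries. In st66 against st61, DESeq2 gave 1 and 1, and leaving out both libraries 1 and 3. In T3 against st54, DESeq2, RLE and upper-quartile factors gave 2 lower, and leaving out both libraries 5 lower. With the T3 libraries summed the calls of sums were lost, as were those of most genes. In T3 against st61, DESeq2, upper-quartile factors, fits of 2 groups and leaving out both libraries gave 2 lower, and the call was lost with T3 summed.

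Leaving out each library in turn gave, for members higher and lower, 7 to 11 and 6 to 10 in st61 against st54, 6 to 10 and 2 to 12 in st66 against st54, 1 to 5 and 2 to 6 in st66 against st61, 2 to 7 and 2 to 11 in T3 against st54, and 3 to 6 and 5 to 11 in T3 against st61. For subfamily sums the ranges were 1 to 2 and 1 to 3, 0 to 1 and 0 to 2, 0 to 1 and 0 to 2, 0 to 1 and 0 to 4, and 0 to 0 and 1 to 2, in the same order of comparisons. Calls over all genes moved widely as well. Those lower in st66 against st54 ran from 557 without the second st66 library to 1899 without the first. Those lower in T3 against st54 ran from 205 without the third T3 library to 2534 without the first st66 library. The floor of 3 counts lay between 0.0759 and 0.378 CPM per library; cyp2a6.7 in st54 and cyp2a6.8 in T3 and st54 had at most 1 count per group and were not resolved.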

Other observations

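Within the T3 group, whose libraries otherwise lay close together, cyp2a6.9 differed widely, at 3.13, 0.0259 and 1.01 CPM. Among 15102 genes tested it was the only gene with at least 50 counts whose level in the first T3 library was over 10 times that in the second, and 0 genes had the reverse. Its neighbour cyp2g1p, which was also near 0 in st54, had 107, 104 and 105 CPM in the same T3 libraries. That cyp2a6.9 stood alone depends on the limits used, which were set with earlier results known. The gene prss1 fell short of them with 0.974, 0.130 and 0.213 CPM in T3.

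In the chromosome 8 array the third st54 library had 8.61 CPM of cyp2a6.9 and 8.45 CPM of cyp2g1p, while the other st54 libraries had at most 0.312 CPM of either. The same library had 36.7 CPM of cyp2c8.2 and 45.1 CPM of cyp2a6.3, the lowest of all 12 libraries for both genes.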
